A study of Caenorhabditis elegans with 6 samples.

Results

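The fatty acid and retinol-binding (FAR) proteins of C. elegans are encoded by 8 genes, far-1 to far-8, taken as the rows of the deposited table whose symbol is one of these names. All 8 symbols were found once among the 46936 genes in the table. Whole-animal RNA of N2 wild-type C. elegans was sequenced from 3 biological replicates grown on water-treated control plates and 3 on plates with MProPow2, a milk protein powder that contains milk fat globule membrane and was spread as a 1 mg/mL solution. Both groups were plated as L1 larvae, kept at 20 °C on *E. coli* OP50, moved at the L4 stage to plates with 10 µM 5-fluorouracil (5-FU), which prevents progeny, and collected on day 2 of adulthood. Each library is a pool of whole animals, so a smaller tissue and less RNA per cell of that tissue cannot be told apart.

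FAR proteins are small lipid carriers that occur in nematodes and, as far as is known, not in other animal groups. They are rich in alpha-helix and bind fatty acids and retinol in a hydrophobic cavity, by a fold that is unrelated to that of the beta-barrel fatty acid-binding proteins (LBP in C. elegans) and of the lipocalins. Parasitic nematodes secrete FAR proteins into their hosts, where they are thought to take up host lipids. C. elegans takes its sterols and much of its fat from food, and it moves lipid between tissues with yolk lipoprotein particles as well as with such small carriers.

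In MProPow2-treated animals, 0 of the 8 far genes passed the test in either direction (edgeR's quasi-likelihood test, adjusted p under 0.05), where 3.01% of the 14534 genes tested passed, 1.53% as higher and 1.47% as lower. At an unadjusted p under 0.05, 0 were higher, and far-2 and far-6 were lower among the 7 genes that passed the filter on low counts in both groups. The remaining gene, far-7, was lower too, but entered the test through its control values alone. Among all genes tested 7.75% were lower and 9.13% higher at this threshold, 16.9% together. Of the 8 genes, only far-6 was lower at this threshold in every alternative, and far-5 was higher in some, as given in the last section. DESeq2 also called 0 of the 8 at its adjusted p. Of its 15772 genes with an adjusted p, 2.16% passed as higher and 2.46% as lower. At its unadjusted p far-2 and far-6 were lower. Of its 26606 genes with an unadjusted p, taken with no filter on low counts, 4.05% were lower and 4.55% higher. This share is thus over more genes of low level than that of edgeR. Limma on log2(FPKM + 1) called 0 as well, where 0.178% of its genes were called higher and 0.288% lower. It had far-2, far-6 and far-7 lower at unadjusted p, where 5.61% of its genes were lower and 7.69% higher. The median log2 fold change of the 8 genes was -0.083, beside -0.013 over all genes tested. This median includes far-7, whose entry into the test favoured a lower value. Among the other 7 genes the middle value was that of far-8, -0.057. The members differed widely among themselves in level, in spread between replicates and in the size of their differences, as given below.

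The 6 libraries held between 28859395 and 37501098 counts, and replicates within a group differed pairwise beyond sampling noise (the lowest chi-square of a pair was 14.9 per degree of freedom). All 8 far genes passed the filter on low counts. For far-7 this was through the control group, with 3 control libraries and 1 MProPow2 library at or above the filter's level of 0.321 CPM (counts scaled to 1000000 per library), so that its entry into the test favoured a difference. The other 7 genes were above that level in all 6 libraries.

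To compare the genes with each other, the deposited FPKM values (fragments per kilobase of gene, scaled for depth) were ranked. The level of far-2 was 3022 FPKM as the mean of the 6 libraries, rank 16 of the 26609 genes with at least 1 read. It was followed by far-1 at 583 FPKM (rank 180) and far-6 at 74.0 FPKM (rank 1772). The middle of the family was formed by far-8 at 24.7, far-3 at 20.0 and far-5 at 5.37 FPKM. The lowest levels were those of far-4 at 0.762 FPKM and far-7 at 0.676 FPKM. From far-7 to far-2 the mean FPKM spanned 4469-fold. Order in the family was the same in all 6 libraries for each step except at neighbouring pairs of similar level: far-8 was above far-3 in 4 of 6 libraries, and far-4 was above far-7 in 5 of 6. The levels within these pairs were not tested against each other. In all 3 MProPow2 libraries far-4 was above far-7. Among the far counts, far-2 made up 79.9% in control and 78.4% in MProPow2 libraries.

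**Figure D1:**
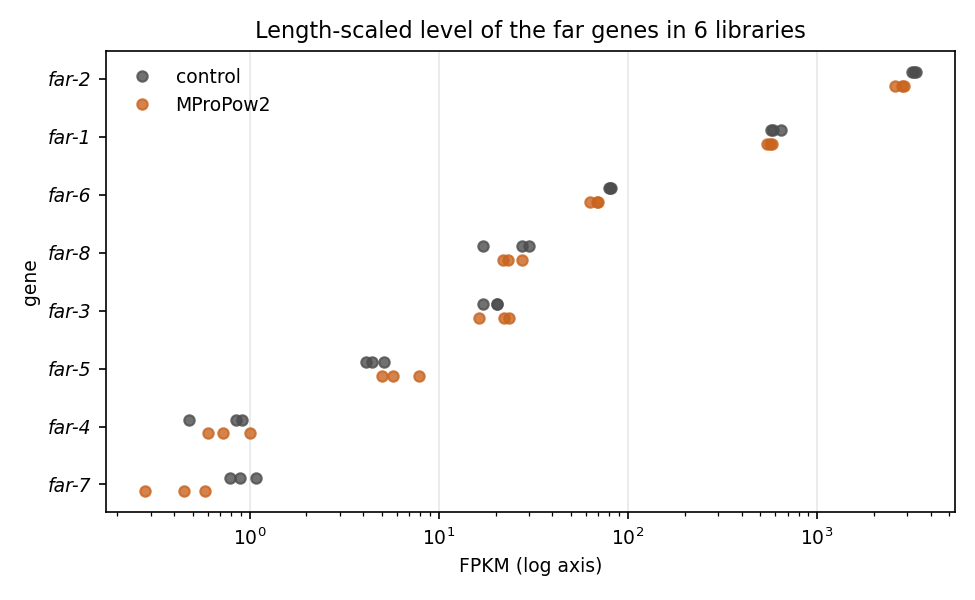
Level of each far gene in FPKM (log axis) in the 3 control and 3 MProPow2 libraries, 1 point per library, ordered by the mean. The levels of far-2, far-1 and far-6 stand apart from all others, while far-8 and far-3, and far-4 and far-7, interleave.

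The most abundant carrier of the family, far-2 (identifier 176284), was at 2087, 1981 and 2054 CPM in control libraries 1 to 3. In MProPow2 libraries 1 to 3 it was at 1586, 1788 and 1792 CPM. All 3 MProPow2 libraries thus lay below all 3 control libraries, with replicate 1 the lowest. The mean was 2041 ± 54.6 CPM (SD, n = 3) in control and 1722 ± 117 CPM in MProPow2 (n = 3), which is 84.4% of control. The log2 fold change was -0.25 (standard error 0.10, 95% interval -0.48 to -0.011), with an unadjusted p of 0.042 and an adjusted p of 0.275 from edgeR's quasi-likelihood test. This difference was larger than the spread within either group, yet it did not pass once all genes were accounted for, and 15.2% of the genes tested had a p at or below that of far-2. It rests on 51123 to 74285 reads per library, where counting error alone is 0.410% of the mean.

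Its neighbour far-1 (identifier 176283), the next in abundance, lies head to head with far-2, the 2 genes being transcribed away from each other. Its values were 390, 382 and 433 CPM in control libraries 1 to 3, and 370, 368 and 379 CPM in MProPow2 libraries 1 to 3. The groups were narrowly apart on this scale and overlapped when libraries were scaled by RLE or upper-quartile factors or taken as FPKM. The mean was 402 ± 27.2 CPM (SD, n = 3) in control and 372 ± 6.07 CPM in MProPow2 (n = 3). The log2 fold change of -0.11 had a 95% interval from -0.32 to 0.097 (adjusted p = 0.629, edgeR), which bounds the level in MProPow2 at 80.3% to 107% of control.

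The gene of smallest p in the family was far-6 (identifier 189096). It was at 73.9, 75.8 and 74.6 CPM in control libraries 1 to 3, and at 63.5, 64.5 and 58.0 CPM in MProPow2 libraries 1 to 3. The 3 control libraries were almost equal, and every MProPow2 library lay below them. The mean was 74.8 ± 0.96 CPM (SD, n = 3) in control and 62.0 ± 3.51 CPM in MProPow2 (n = 3), or 82.9% of control. This is a log2 fold change of -0.27 with a 95% interval of -0.45 to -0.093 (standard error 0.079, adjusted p = 0.116 from edgeR). Its unadjusted p of 0.0069 ranked at 854 among the 14534 genes tested. The control spread of 1.29% was below the 2.02% expected from counting reads alone at its 1739 to 2844 reads per library, so the control libraries lay closer together than counting error would give on average. The next protein-coding genes beside far-6 are fat-2, the delta-12 fatty acid desaturase, and pqn-74, whose values are not given here. Of these, fat-2 was at 915 ± 9.89 CPM in control and 756 ± 94.3 CPM in MProPow2 (log2 fold change -0.28, adjusted p = 0.251 from edgeR). The value of fat-2 was looked up after that of far-6 was known, and a shared effect on neighbouring genes was not tested.

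**Figure D2:**
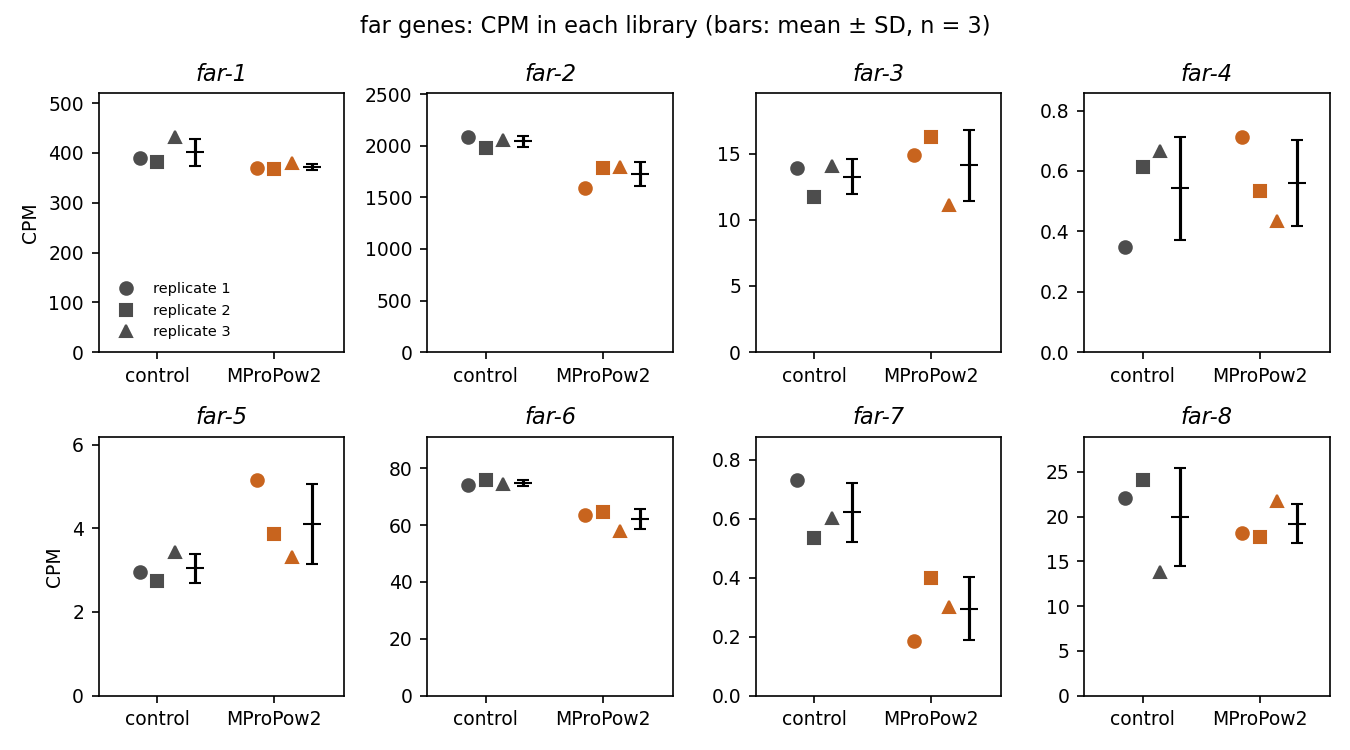
Level of each far gene in CPM in each library, with the mean and SD of the 3 libraries per group at the right of the points. Each axis starts at 0. The MProPow2 points lie below the control points for far-2, far-6 and far-7, and narrowly for far-1, and overlap them for the other 4 genes.

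The gene of the largest fold difference, far-7 (identifier 173421), was also that of the lowest level. Its counts were 21, 20 and 19 reads in control libraries 1 to 3, and 6, 12 and 9 reads in MProPow2 libraries 1 to 3. The groups did not overlap, but each count is small, and the exact 95% Poisson interval of 6 reads runs from 2.20 to 13.1 while that of 19 reads runs from 11.4 to 29.7. These intervals cover counting error only. On the CPM scale the means were 0.622 ± 0.10 (SD, n = 3) in control and 0.295 ± 0.11 in MProPow2 (n = 3). This gave a log2 fold change of -1.06 with a 95% interval of -1.89 to -0.24 (standard error 0.37, adjusted p = 0.177 from edgeR), and the unadjusted p was 0.017 in edgeR and 0.066 in DESeq2. The interval allows a level between 27.02% and 84.63% of control. Since far-7 entered the edgeR test through its control values alone, which favoured a difference, neither this interval nor the edgeR p can be taken at face value.

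Across the 7 genes that passed the filter in both groups, far-1, far-2 and far-6 had all MProPow2 CPM values below all control values and 0 had them above. The same was seen in far-7, where the filter favoured it. Among all genes tested, groups were apart for 12.3% in the lower direction and 11.1% in the higher direction, 23.3% together. The separation of far-1 was lost with every other scaling, while far-2, far-6 and far-7 had groups apart under TMM, RLE and upper-quartile scaling and in FPKM. For groups of this size the smallest two-sided p of an exact permutation test on 1 gene is 0.1.

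A cluster of 3 members, far-5, far-3 and far-4, lies side by side in the genome in that order. In RefSeq's annotation far-5 and far-3 point toward each other and overlap at their ends, so reads in the overlap cannot be assigned if the counting did not use strand, which is not given in the sources used here. Of the 3, far-3 (identifier 179785) was at 13.95, 11.73 and 14.06 CPM in control libraries 1 to 3, and at 14.9, 16.3 and 11.1 CPM in MProPow2 libraries 1 to 3. Both the highest and the lowest library were MProPow2 libraries. Its log2 fold change was 0.092 (95% interval -0.27 to 0.45, adjusted p = 0.839, edgeR).

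The only member with a higher mean in MProPow2 by more than 10% was far-5 (identifier 184522), with 2.96, 2.75 and 3.43 CPM in control libraries 1 to 3 and 5.15, 3.86 and 3.30 CPM in MProPow2 libraries 1 to 3. Replicate 1 of MProPow2 stood highest, and replicate 3 lay within the control range. The log2 fold change was 0.43 (standard error 0.20, 95% interval -0.019 to 0.89, unadjusted p = 0.058 and adjusted p = 0.322 from edgeR), on 85 to 166 reads per library. For far-4 (identifier 191633), with 10 to 23 reads per library, the means were 0.543 ± 0.17 CPM in control and 0.560 ± 0.14 CPM in MProPow2 (SD, n = 3 each). Its interval, -0.75 to 0.83 on the log2 scale, leaves the level in MProPow2 anywhere from 59.3% to 177% of control, so that a change of that size was not detectable at this depth.

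The remaining member, far-8 (identifier 186902), was at 22.1, 24.1 and 13.8 CPM in control libraries 1 to 3 and at 18.2, 17.8 and 21.7 CPM in MProPow2 libraries 1 to 3. Control replicate 3 was the lowest of the 6 libraries, and the MProPow2 values lay between it and the other control libraries. By edgeR the log2 fold change of -0.057 had a standard error of 0.19 and an adjusted p of 0.928, and it turned to 0.0096 with upper-quartile scaling. Its spread over control libraries was 27.3% of the mean, where 3.90% is expected from counting reads, so that for far-8 the spread between replicates, not depth, set the precision. For far-4 the control spread of 31.5% was near the 23.6% of counting error.

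**Figure D3:**
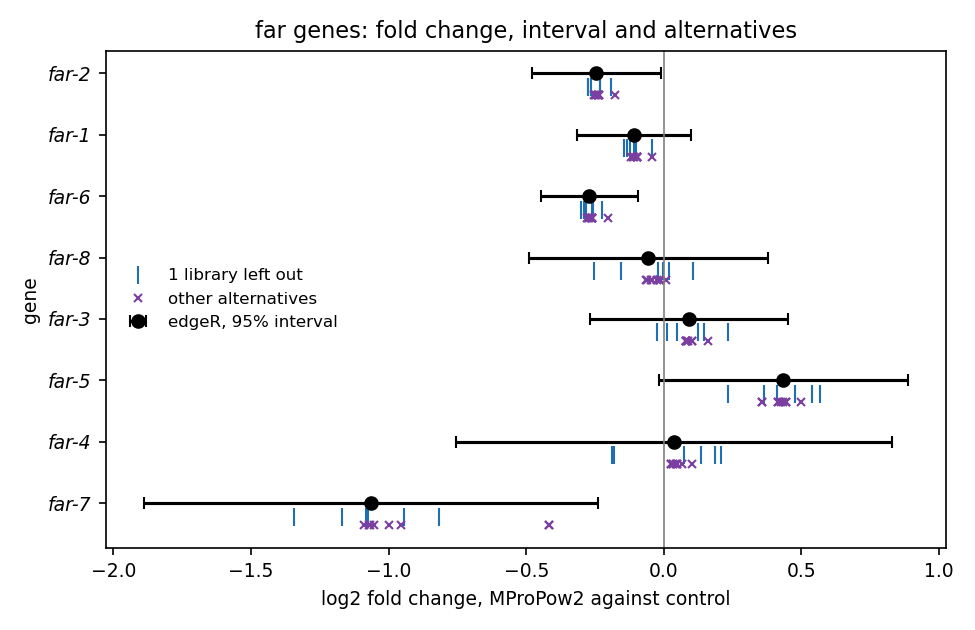
Log2 fold change of each far gene in MProPow2 against control, ordered by mean FPKM. Black points and bars are the edgeR estimate with its 95% interval, blue ticks are the fits with 1 library left out and purple crosses are the other alternatives. The estimates of far-2, far-1, far-6 and far-7 stay below 0 and that of far-5 above 0 under every alternative that tested them, while those of far-8, far-3 and far-4 cross 0.

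Since far-2 takes most of the reads, the sum over the family follows it. The summed level was 2592, 2478 and 2594 CPM in control libraries 1 to 3 and 2059, 2259 and 2266 CPM in MProPow2 libraries 1 to 3. MProPow2 libraries had on average 0.859 times the sum of control libraries, and 0.865 times with RLE and 0.899 times with upper-quartile scaling. Without far-2 the sum was 514 ± 22.8 CPM (SD, n = 3) in control and 473 ± 1.44 CPM in MProPow2 (n = 3), a ratio of 0.920. As a share of all counts, far genes took 0.248% to 0.260% in control and 0.206% to 0.231% in MProPow2 libraries.

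A ratio of 2 genes within 1 library does not depend on how libraries are scaled, and 4 such ratios of FPKM were compared. In 3 of them the genes are neighbours, while far-5 and far-4 lie on either side of far-3. The ratio of far-2 to far-1 was 5.71, 5.53 and 5.07 in control libraries 1 to 3 and 4.58, 5.19 and 5.04 in MProPow2 libraries 1 to 3. The groups overlapped (exact permutation test, two-sided p = 0.2, adjusted p = 0.4 over 4 ratios), so a different response of these 2 genes was not shown. The ratio of far-5 to far-3 had means of 0.236 ± 0.017 in control and 0.301 ± 0.056 in MProPow2 (SD, n = 3 each, exact permutation test, two-sided p = 0.2, adjusted p = 0.4). The ratios that involve far-4 overlapped too, with exact permutation p of 1 against far-3 and 0.4 against far-5. The smallest p that these tests can give is 0.1.

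**Figure D4:**
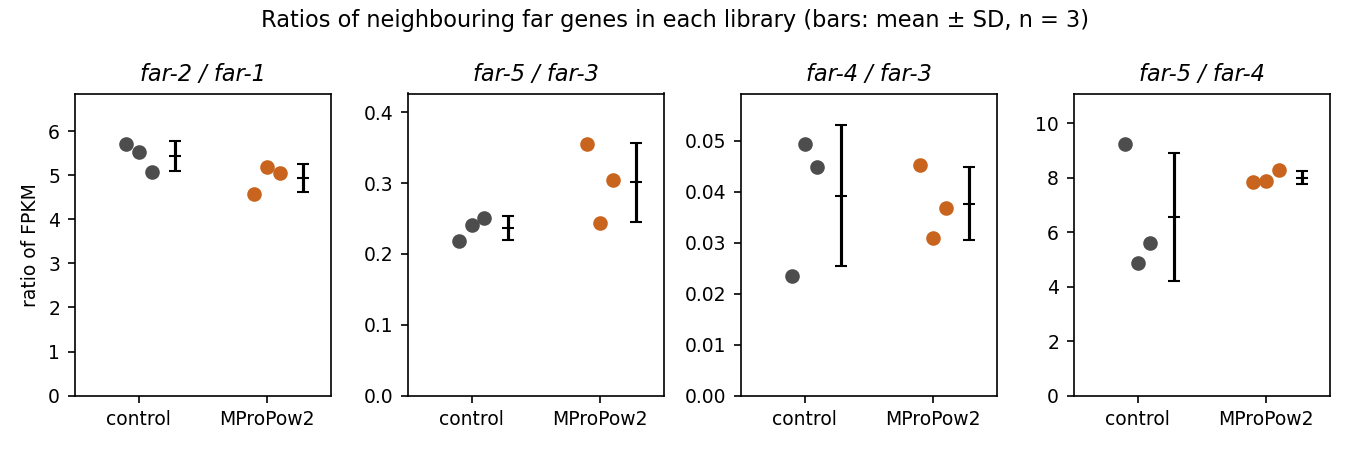
Ratio of FPKM in each library between far genes that are neighbours or, for far-5 and far-4, lie on either side of far-3, with the mean and SD of 3 libraries per group. The axes start at 0. Control and MProPow2 values overlap in all 4 ratios.

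Other carriers and the synthesis of fatty acids were described with the same fit. The counts below, and those of the tissue markers, stand beside the shares over all genes. EdgeR called 1.53% of all genes tested higher and 1.47% lower, with 9.13% higher and 7.75% lower at unadjusted p. DESeq2 called 2.16% of its genes higher and 2.46% lower. Of the 9 lbp genes, which encode the beta-barrel fatty acid-binding proteins, 0 were called by edgeR, 3 were lower at unadjusted p (lbp-6, lbp-7 and lbp-9) and the median log2 fold change was -0.26. DESeq2 called 1 lbp gene lower. Among 7 lipocalin-related (lpr) genes 6 were tested, and lpr-5 was called higher, from 1.40 ± 0.12 to 2.86 ± 0.80 CPM (SD, n = 3 each, log2 fold change 1.03, adjusted p = 0.050 from edgeR, just under the threshold). It was not called without any 1 of control replicates 1, 2 and 3 or MProPow2 replicates 1 and 2, where its adjusted p lay between 0.063 and 0.177. Of 15 alternatives, 5 called it.

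Of 9 genes of the yolk system (the 6 vitellogenins, the yolk receptor rme-2, dsc-4 and lrp-1), 4 were called higher and 1 lower. Those higher were all vitellogenins, with vit-1, vit-3 and vit-5 at log2 fold changes of 0.89, 0.89 and 0.67. The lower gene was dsc-4, the large subunit of microsomal triglyceride transfer protein, which loads lipid onto lipoproteins. It fell from 74.8 ± 0.93 CPM to 48.2 ± 6.33 CPM (SD, n = 3 each, log2 fold change -0.63, adjusted p = 0.015 from edgeR), and its call was lost when control replicate 2 or 3, or else MProPow2 replicate 1, was left out. Nor was vit-3 called without control replicate 2 or 3, or vit-5 without any control replicate or MProPow2 replicate 1. Of these genes, vit-1 was called under all 15 alternatives, vit-3 under 12, and vit-5 and dsc-4 under 9 each.

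Of 18 genes of fatty acid synthesis, desaturation and elongation 16 were tested, with 1 called higher and 2 lower, and 8 lower at unadjusted p. The called genes were the desaturases fat-5 (log2 fold change -0.89, adjusted p = 0.0050), fat-6 (-0.62, adjusted p = 0.025) and fat-3 (0.66, adjusted p = 0.047), all from edgeR. Without control replicate 1, 2 or 3 or MProPow2 replicate 1, fat-6 was not called, and fat-3 was in addition lost without MProPow2 replicate 2. Of 15 alternatives, fat-6 was called under 7 and fat-3 under 6. The call of fat-5 was made under 14 and lost with limma on log2(FPKM + 1) and no minimum (adjusted p = 0.065). The median of this list was -0.24. The far median of -0.083, which includes far-7, lay between this value and that of all genes. It was nearer to the medians of the germline and oocyte markers (-0.085) and the pharyngeal markers (-0.10) given below.

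Markers of whole tissues were set beside these values. Of 7 body wall muscle genes, 4 were called lower (tnt-2, lev-11, mup-2 and unc-27), with a list median of -0.49 and a summed level of 1014 to 1105 CPM in control against 758 to 848 CPM in MProPow2. Without control replicate 2, without control replicate 3 or without MProPow2 replicate 1, none of these 4 was called (adjusted p between 0.052 and 0.124), and without control replicate 1 only tnt-2 was. Limma on log2(FPKM + 1) called 0 of the muscle genes and 1 on log2(FPKM + 0.1). Of 7 intestinal genes found of 8 listed, edgeR called 0, with 4 lower at unadjusted p, and DESeq2 called 2 lower. EdgeR called 2 of them lower with no filter and 1 without MProPow2 replicate 2 or 3. The intestinal median was -0.28, with 6 genes negative and 1, mtl-2, positive (0.26). Their summed level was 781 to 810 CPM in control against 571 to 742 CPM in MProPow2. Most of this sum was act-5 alone, at 551 ± 15.2 CPM in control and 454 ± 61.5 CPM in MProPow2 (SD, n = 3 each). The muscle and intestinal sums were thus lower in all MProPow2 libraries, as the levels of far-2 and far-6 were. Their part in the far values was not tested. The 6 hypodermal genes tested of 8 listed had a median of 0.11, the 8 neuronal genes of 0.0046, the 6 pharyngeal genes of -0.10 and the 8 germline and oocyte genes of -0.085, with 0 called by edgeR in each. Of the hypodermal genes, 1 was called higher by DESeq2, with no filter or without MProPow2 replicate 3. The 3 coelomocyte genes had a median of 0.51 with 0 called by edgeR and 1 higher at unadjusted p. Sperm genes were at or near 0, with summed levels of 0.50 to 2.23 CPM over the 6 libraries.

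The genes whose pattern over the 6 libraries was most like that of far-2, by Pearson's r of log2 CPM among 7747 genes of at least 10 CPM, were har-1, F10G2.1, ant-1.1, fat-6 and sid-2 (r from 0.990 to 0.995). Among them ant-1.1 encodes a mitochondrial ADP/ATP carrier and fat-6 a delta-9 desaturase. By edgeR fat-6 (log2 fold change -0.62, adjusted p = 0.025) and sid-2 (-0.64, adjusted p = 0.045) were called lower, against -0.25 for far-2. The genes har-1, F10G2.1 and ant-1.1 were not called. The call of sid-2 was made under 5 of 15 alternatives and lost without any 1 of the control replicates or MProPow2 replicate 1. The genes most like far-6 were F22E5.1, cln-3.1, asp-12, ugt-2 and abt-4 (r from 0.995 to 0.997), of which asp-12 encodes an aspartyl protease and ugt-2 a UDP-glucuronosyltransferase. All 5 of the latter were called lower, with log2 fold changes of -1.39 to -0.61, against -0.27 for far-6, so that the like pattern was in shape and not in size. The call of cln-3.1 was made under 5 of 15 alternatives and lost without any 1 of the control replicates or MProPow2 replicate 1, while the other 4 were called under 13 or 14. With 6 libraries in 2 groups, any gene that differs between the groups and varies little within them gives a high r.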

How the data were processed

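Paired-end reads were aligned by the authors (HISAT2 2.0.5) and assigned to genes with featureCounts, and the raw counts were deposited. The authors also deposited FPKM values, for which neither the gene lengths nor the totals are stated. The genome build, annotation and strand setting were not given in the sources used here. No coordinates are therefore printed, and RefSeq's gene table of assembly WBcel235 was used only for names and neighbours (46920 of 46936 identifiers matched), with gene orientation from the Ensembl annotation of that assembly. Columns were assigned to samples by name.

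The test of the counts used edgeR 4.0.16 (R 4.3.3) with filterByExpr (minimum count 10), TMM scaling and the quasi-likelihood test, 3 MProPow2 against 3 control libraries without covariates. P-values were adjusted by Benjamini-Hochberg over all 14534 tested genes, with a threshold of 0.05. CPM values use TMM-scaled library sizes. The standard error is the log2 fold change divided by the root of the F statistic.

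The members and the lists were chosen with earlier results of these data known. The genes named are the 8 far genes, up to 4 called genes of smallest p per list, and the 5 genes of most similar pattern to the most abundant far gene and to that of smallest p. The lbp genes, fat-2, act-5 and mtl-2 are named beyond this rule, after their values were seen. In addition, pqn-74 is named only for its place beside far-6. Alternatives were RLE and upper-quartile scaling, no filter on counts, a filter of 10 counts in all libraries, DESeq2 1.42.0, a replicate block, each library left out, and limma 3.58.1 on log2 FPKM with a pseudocount of 1 or 0.1 and a minimum mean FPKM of 0.1, or with a pseudocount of 1 and no minimum. The methods were tested on simulated data.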

Additional observations from a re-analysis of the deposited data

How the results depend on the processing

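Under all 15 alternatives 0 far genes were called, the smallest adjusted p being 0.086, for far-5 without MProPow2 replicate 3. Shares over all genes at unadjusted p were taken only for the main test, DESeq2 and limma on log2(FPKM + 1). The log2 fold changes of far-1, far-2, far-6 and far-7 were negative and that of far-5 was positive in every alternative that tested them, and far-7 was not tested with at least 10 counts in every library. Leaving out single libraries gave values from -0.25 to 0.11 for far-8 (positive without control replicate 1, 0.018, or 2, 0.11), from -0.19 to 0.21 for far-4 (negative without control replicate 1, -0.19, or MProPow2 replicate 1, -0.18) and from -0.025 to 0.23 for far-3 (negative without MProPow2 replicate 2, -0.025). With upper-quartile scaling far-8 was at 0.0096. The fold change of far-7 was -0.42 with limma on log2(FPKM + 1), a scale that understates changes of low genes. The family sum ran from 0.844 to 0.884 times control without single libraries. The order of mean FPKM differed at 0 to 2 of 8 places, the 2 being far-4 and far-7 without MProPow2 replicate 1. The deviations of libraries of the same replicate number correlated across genes at -0.10, 0.18 and -0.19, and those of unlike number at -0.33 to 0.31. Pairing by replicate number was thus not seen, but 3 libraries per group cannot exclude it. With a replicate block 90 genes were called higher and 102 lower, against 223 and 214 without it, and 0 far genes. The counts over all genes were 229 higher and 131 lower with upper-quartile scaling, 684 and 542 with no filter, 341 and 388 with DESeq2, 37 and 60 with limma on log2(FPKM + 1), 66 and 82 with log2(FPKM + 0.1), and 12 and 33 with log2(FPKM + 1) and no filter. Without single libraries they ran from 17 to 627 higher (control replicate 2 and MProPow2 replicate 3 left out) and from 55 to 417 lower (the same libraries). With no filter 3 lbp and 6 fatty acid synthesis genes were called lower, and with DESeq2 1 and 5, against 0 and 2 in the main test. Under each of both settings 2 intestinal genes were called lower and 1 hypodermal gene higher, against 0 and 0. Depth limits far-4 and far-7, at 6 to 23 reads per library. The causes of these differences were not tested.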
